A study of Homo sapiens with 2 samples.

Results

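The histone gene cluster on the short arm of human chromosome 6 was described in HCT116 cells by its chromatin contacts. Replication-dependent histone genes encode the core histones H2A, H2B, H3 and H4, which form the nucleosome, and the linker histone H1, which binds the DNA between nucleosomes. These genes are short and have no introns, they are transcribed mainly in S phase, and many H2A and H2B genes lie head to head and share a promoter region. In the nucleus, the histone genes of this cluster are known to gather at histone locus bodies, where their transcripts are made and processed.

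HCT116 is a cell line established from a human colorectal carcinoma. The data were 2 replicates of 1 condition, cultured HCT116 cells with no treatment named, and the labels do not say whether the replicates came from separate cultures. In HiChIP, chromatin fragments that are close in the nucleus are ligated, and those carrying a chosen mark are pulled down. Here the mark was H3K27ac, an acetylation of histone H3 at active enhancers and promoters, so a count is a read pair that joins 2 genomic segments, called anchors, of which at least 1 fragment was marked. A loop is a pair of different anchors with a count and with midpoints up to 2 Mb apart.

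Members were all loops with at least 1 anchor in a histone window, chr6:26000000-26300000 (first window) or chr6:27000000-27900000 (second window) of hg19. There were 1005 of 1017526 loops in replicate 1 and 1214 of 1156897 in replicate 2, or 1989 of 1973472 in either replicate. Of these, 230 loops were found in both replicates, 22.9% of those in replicate 1 and 18.9% of those in replicate 2. These percentages describe the members only and were not set against those of all loops, so they are not a trait of the cluster. The tables summed to 1885481 and 2131466 counts, of which members held 1227 and 1548. Counts were sparse. The members in replicate 1 had a count of 1 in 86.0% of cases, those in replicate 2 in 85.7%, the highest counts were 11 and 8, and 59 members had a summed count of 5 or more. Single loops therefore carry wide counting intervals, and most results are given for groups of anchor pairs.

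The windows hold 50 protein-coding histone genes, 29 in the first and 21 in the second. They fall into 3 islands, separated by gaps of more than 200 kb. Island 1 is chr6:26017260-26285762 with 29 genes, island 2 is chr6:27100095-27115341 with 5 genes, and island 3 is chr6:27775257-27861669 with 16 genes. Islands 2 and 3 both lie in the second window. Between the windows is an interval with butyrophilin (BTN) genes, which encode immune receptors of the immunoglobulin superfamily.

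The 150 bases before the transcription start site are shown for 6 histone genes, because their anchors formed the strongest loop within island 1 (H2BC4 and H1-4), the strongest loop between islands 2 and 3 (H2BC11 and H2BC15), and the loop between histone anchors of the 2 windows that was found in both replicates without a shared 50-base sequence (H4C5 and H2BC12). Capitals mark exact matches on either strand to TATAAA (the TATA box), CCAAT (bound by NF-Y), ATTTGCAT (the octamer, bound by OCT1) and AAACACA (the H1 box). The sequences are from GRCh37, 5′ to 3′ on the strand of the gene, and lie at chr6:26124155-26124304 (H2BC4, minus strand), chr6:26156407-26156556 (H1-4, plus), chr6:27100575-27100724 (H2BC11, minus), chr6:27806197-27806346 (H2BC15, plus), chr6:26204688-26204837 (H4C5, plus) and chr6:27114635-27114784 (H2BC12, minus).
H2BC4: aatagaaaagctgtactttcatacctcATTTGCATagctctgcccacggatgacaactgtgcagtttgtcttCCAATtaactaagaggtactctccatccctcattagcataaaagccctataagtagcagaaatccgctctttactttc
H1-4: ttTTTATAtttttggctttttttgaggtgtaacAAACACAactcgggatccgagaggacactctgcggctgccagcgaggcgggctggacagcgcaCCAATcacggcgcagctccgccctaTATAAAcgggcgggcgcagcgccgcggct
H2BC11: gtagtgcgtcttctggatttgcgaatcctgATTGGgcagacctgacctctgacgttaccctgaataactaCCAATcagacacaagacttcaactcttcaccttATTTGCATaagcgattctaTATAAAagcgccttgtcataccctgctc
H2BC15: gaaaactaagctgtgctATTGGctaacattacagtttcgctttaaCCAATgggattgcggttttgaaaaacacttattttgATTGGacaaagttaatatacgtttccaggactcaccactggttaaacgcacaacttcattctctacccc
H4C5: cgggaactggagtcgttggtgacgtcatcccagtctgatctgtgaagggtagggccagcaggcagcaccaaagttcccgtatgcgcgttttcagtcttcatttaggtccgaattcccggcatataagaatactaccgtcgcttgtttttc
H2BC12: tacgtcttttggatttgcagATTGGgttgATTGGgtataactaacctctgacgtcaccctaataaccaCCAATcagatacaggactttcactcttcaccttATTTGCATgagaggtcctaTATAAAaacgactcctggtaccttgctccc

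The promoters H2BC11 and H2BC12 of island 2 hold CCAAT, octamer and TATA letters in the same order, H1-4 holds the H1 box, and the H4C5 stretch has none of these letters. Over the 250 bases before to 50 bases after each start site, TATAAA was found in 34 of 50 histone promoters (68.0%), compared with 9.82% of 20098 protein-coding promoters. CCAAT was found in 43 of 50 (86.0%), compared with 35.9%, and in all promoters of the H1, H2A, H2B and H3 genes but only 4 of 11 of the H4 genes. The octamer was found in 9 of 11 H2A and 9 of 12 H2B promoters and in none of the H1, H3 and H4 promoters, compared with 1.58% of all promoters. The H1 box was found in 6 of 6 H1 promoters and in no other histone promoter of the windows, compared with 4.20% of all promoters. The motifs do not overlap each other in these stretches. The motif counts describe all 50 promoters, although only 33 of these genes lie in an anchor, and were not related to contact counts.

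First, the anchors at histone genes were described. The first window holds 40 anchors, of which 14 overlap a histone gene, and the second holds 114, of which 9 do. The interval holds 71 anchors. Of the 50 histone genes, 33 lie in an anchor, and 9 of the 23 histone anchors hold more than 1 of them. By class, 2 of 6 H1 genes, 8 of 11 H2A genes, 10 of 12 H2B genes, 5 of 10 H3 genes and 8 of 11 H4 genes lie in an anchor. The H1 genes in an anchor are H1-2 and H1-4, which encode common somatic linker histones. The testis variant H1-6 lies 2820 bases from the nearest anchor, H1-1 1652 bases, H1-3 769 bases and H1-5 2653 bases. An anchor of its own is missing for these 4 genes, which says where anchors were placed and does not measure their acetylation.

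As a group, the histone anchors had many contacts for their width. Depth was taken as the counts of all loops of an anchor, summed over both replicates, per kb of anchor. Its median was 17.0 per kb for the 14 histone anchors of the first window and 14.7 for the 9 of the second, compared with 11.7 and 7.64 for the other anchors of the same windows, 6.86 for the interval and 5.97 for all 250222 nuclear anchors. The densest anchors of the first window hold no histone gene. They were chr6:26194518-26196010 (37.5 per kb), chr6:26092721-26094146 in the gene HFE (26.0) and chr6:26171594-26175155 (25.0). The densest histone anchor was that of H2BC4 and H2AC6, a divergent H2B and H2A pair, with 61 counts in replicate 1 and 73 in replicate 2 (24.5 per kb). The anchor of H1-4 and H2BC5 followed with 49 and 52 counts (22.2 per kb), then that of H2AC14 and H2BC14 with 13 and 21 in a narrow anchor (21.6 per kb) and that of H4C3 with 33 and 45 (21.2 per kb). The anchor of H2BC9 was the exception, with 5 and 2 counts (2.57 per kb), below the median of all anchors. The anchors of H3C11 (7.57 per kb) and H4C8 (8.58 per kb) were also low among histone anchors but above that median. By class, the median depth of the anchors was 17.1 per kb for H1, 15.0 for H2A, 15.0 for H2B, 14.7 for H3 and 18.9 for H4, and the ranges of the classes overlap. The median number of MboI fragments per kb was 2.01 and 2.40 in histone anchors of the first and second window, compared with 2.42 and 3.10 in the other anchors and 2.72 in the interval, and the part of cut sites in the depth was not tested.

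**Figure D1:**
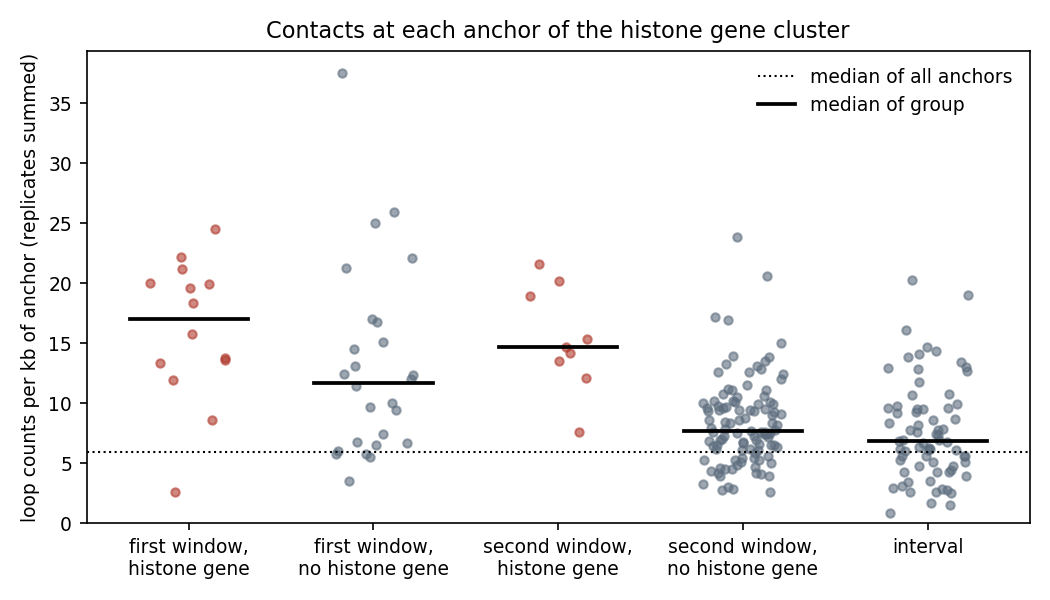
Loop counts per kb of anchor (replicates summed) on the y axis, with 1 point per anchor of the histone windows and the interval. Black bars are group medians and the dotted line is the median of all anchors, 5.97 per kb. The histone anchors have medians of 17.0 and 14.7 per kb, and 1 of them, H2BC9 at 2.57, lies below the dotted line.

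Because deep anchors and short distances both give high counts, each count was set against an expected count computed from the distance of the 2 anchors and from their depths over all pairs of the genome, including those without a count. Over all pairs the observed to expected ratio was 0.994 to 1.00 in each range of distance. The expectation was fitted to these totals, so such values follow from the fit and are no independent check of it. With this expectation, 13 of 51042909 pairs of the genome (2.55e-05%) exceeded it at an adjusted p under 0.01 (one-sided Poisson test on the summed counts with Benjamini-Hochberg adjustment), and none of the 48580 member pairs did. At an adjusted p under 0.05 the number of members was also 0, compared with 22 pairs of the genome (4.31e-05%). An unadjusted p under 0.05 was seen for 730 member pairs (1.50%), compared with 1.38% of all pairs. With an expectation from distance alone, 5322 of 51094602 pairs (0.0104%) passed and 14 member pairs did (0.0288%), 11 within the first window, 2 within the second and 1 between the windows. Both anchors of 12 of these 14 pairs hold a histone gene, and 1 anchor of the other two does. No single loop of the cluster was called once the depth of the anchors was taken into account. Groups of pairs are given below as summed observed over summed expected counts with exact Poisson 95% intervals, which cover counting error only.

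Within the first window the ratio was 1.13 (1.05 to 1.22) from 699 counts, with 1.13 in both replicates. When every loop had the same weight it was 1.04, with an interval that included 1, while it was 2.72 with distance alone and 3.42 (3.17 to 3.69) when pairs of 2 anchors of the histone windows were left out of the balancing of depths. Windows of the same size were placed along the autosomes in steps of 1 Mb, and placements with an expected count of at least 20 were kept. Their 5th and 95th percentiles were 0.780 and 1.22, and 1.13 lay inside them. The expected count here was 617, and placements with fewer expected counts carry more counting error, which widens this range. The strongest loop joined the anchors of H2BC4 with H2AC6 (chr6:26122480-26127944) and H1-4 with H2BC5 (chr6:26155377-26159924), whose H2BC4 and H1-4 promoters are shown above, 32.4 kb apart. It had 11 counts in replicate 1 and 7 in replicate 2, 3.87 times its expected count (2.29 to 6.11), with an adjusted p of 0.502 across the genome by the Poisson test. These anchors share a 50-base sequence.

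The loop of H1-2 with H4C3, a linker histone gene and an H4 gene 49.0 kb apart, had 6 counts in each replicate, 5.02 times its expected count (2.59 to 8.77). The loop of H2BC3 with H2BC4 and H2AC6, 82.4 kb apart, had 4 and 3 counts, 5.49 times expected (2.21 to 11.3). Neither loop passed the Poisson test (adjusted p of 0.834 for H1-2 with H4C3), and both were picked for their high counts. Their anchors share no 50-base sequence. The other 2 of the 5 strongest loops of the window were closer to their expected counts. The loop of H3C2 and H2AC4 with H1-2 had 7 and 5 counts (1.50 times, 0.776 to 2.62), and that of H3C1 and H4C1 with H1-2 had 1 and 8 counts (2.21 times, 1.01 to 4.20), so most of the latter came from replicate 2.

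The ratio of pairs of 2 histone anchors within island 1 varied with distance. It was 0.906 (0.692 to 1.17) under 20 kb, 1.76 (1.38 to 2.22) at 20 to 50 kb and 1.97 (1.47 to 2.58) at 50 to 100 kb. At 100 to 300 kb it was 0.628 (0.359 to 1.02), from 16 counts in 43 pairs. The replicates gave 1.72 and 1.79 at 20 to 50 kb and 1.97 in both at 50 to 100 kb. At 20 to 50 kb the other pairs of the first window were above 1 as well, at 1.31 (1.06 to 1.60) with 1 histone anchor and 1.41 (1.05 to 1.86) with none. At 50 to 100 kb they were at 1.21 (0.924 to 1.55) and 0.858 (0.524 to 1.33). Over both windows and from 20 kb on, pairs of 2 histone anchors had a ratio of 1.70 (1.47 to 1.96), pairs with 1 histone anchor 0.946 (0.848 to 1.05) and pairs with none 1.13 (1.05 to 1.22). The ratio for 2 histone anchors was 1.50 times that for none (1.27 to 1.77), and 1.49 and 1.51 times in the replicates. Over all distances the same comparison gave 1.08 times (0.868 to 1.35) in the first window and 1.18 times (0.929 to 1.48) in the second, and both intervals included 1. The value for 2 histone anchors includes the pairs between islands 2 and 3 described next.

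**Figure D2:**
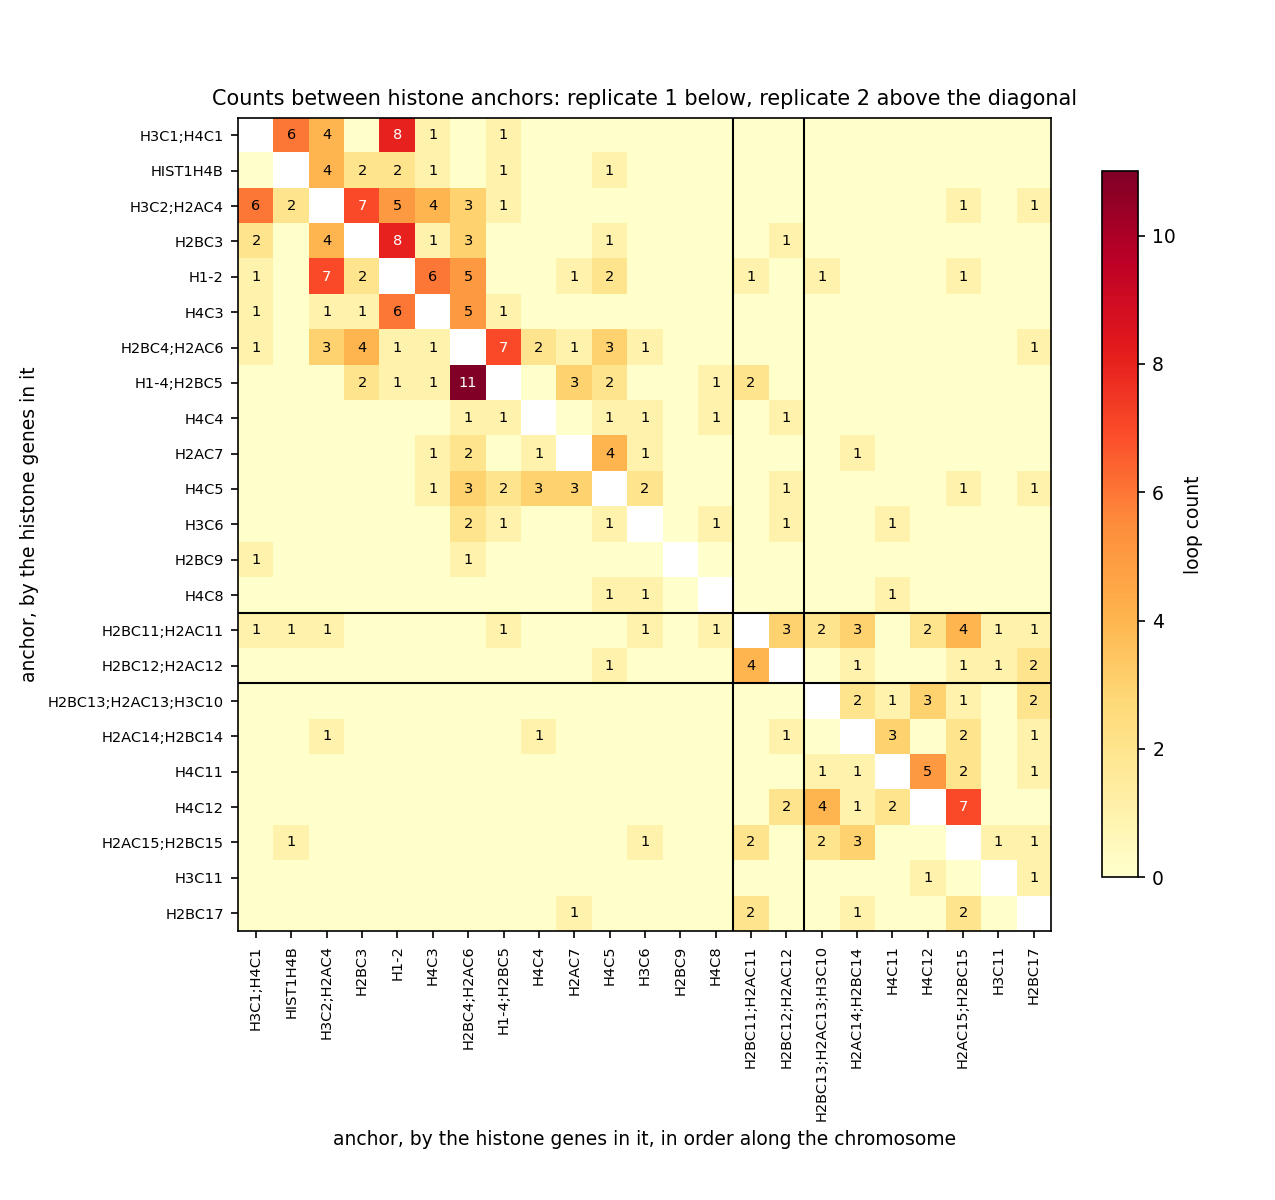
Loop counts between the 23 anchors that hold histone genes, in order along the chromosome, with replicate 1 below and replicate 2 above the diagonal; black lines separate islands 1, 2 and 3. The counts are highest near the diagonal, up to 11 for H2BC4 and H2AC6 with H1-4 and H2BC5, and the rows of island 2 hold counts with both other islands in both replicates.

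Within the second window as a whole the ratio was 0.969 (0.911 to 1.03) from 1061 counts, 0.980 in replicate 1 and 0.958 in replicate 2. It was above 1 with distance alone (1.11) and when pairs of 2 anchors of the histone windows were left out of the balancing of depths (1.30). Most of its pairs have no histone gene, and these were at 1.02 (0.947 to 1.09). Pairs with 1 histone anchor had 164 counts and a ratio of 0.731 (0.623 to 0.851). Among the histone genes of island 3, the loop of H2BC13, H2AC13 and H3C10 with H4C12, 20.9 kb apart, had 4 and 3 counts, 4.32 times expected (1.74 to 8.90). Island 3 as a whole was at its expected count (0.987). The neighbouring H2A and H2B pairs of island 2 had 4 and 3 counts with each other, 0.456 times expected (0.184 to 0.940), and they share a 50-base sequence.

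The histone anchors of islands 2 and 3 had 25 counts in 14 pairs against 2.36 expected, a ratio of 10.6 (6.85 to 15.6). The replicates gave 7 counts (7.65, 3.08 to 15.8) and 18 counts (12.3, 7.28 to 19.4). A count was seen in 11 of the 14 pairs, and 3 of them had counts in both replicates. The strongest joined H2BC11 and H2AC11 (chr6:27097375-27104692) with H2AC15 and H2BC15 (chr6:27803554-27808887), 705 kb apart, with 2 counts in replicate 1 and 4 in replicate 2, 15.3 times expected (5.60 to 33.2). Its adjusted p was 0.638 by the Poisson test with distance and depth, and 1.6e-08 with distance alone. The 2 anchors of this loop share a 50-base sequence. H2BC11 and H2AC11 with H2BC17 had 2 and 1 counts (9.38 times, 1.94 to 27.4). H2BC12 and H2AC12 with H2AC14 and H2BC14 had 1 in each replicate (30.7 times, 3.71 to 111). H2BC11 and H2AC11 with H2AC14 and H2BC14 had 0 and 3 (20.2 times, 4.16 to 58.9), so this pair rests on replicate 2. Without the strongest loop the ratio of islands 2 and 3 was 9.65 (5.81 to 15.1), and without pairs that share 50 bases it was 10.1 (5.99 to 16.0). When every loop had the same weight, whatever its count, the ratio was 5.21 (2.60 to 9.32).

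Other pairs of the second window at 500 to 1000 kb were also above their expected count. Pairs without a histone gene were at 2.18 (1.65 to 2.83) from 56 counts and pairs with 1 histone anchor at 1.95 (1.37 to 2.70) from 36. The ratio of islands 2 and 3 was 4.85 times that of pairs without a histone gene (2.90 to 7.90), and 3.63 and 5.45 times in the replicates.

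Between the windows the ratio was 1.74 (1.47 to 2.05), from 141 counts against 81.0 expected, with 1.51 in replicate 1 and 1.93 in replicate 2. It was 2.89 with distance alone and 3.29 when pairs of 2 anchors of the histone windows were left out of the balancing. To set this beside the rest of the genome, the same arrangement of windows was placed along the autosomes in steps of 1 Mb. Over 1745 placements with an expected count of at least 20, the ratio between the windows had a median of 0.877. Its 5th and 95th percentiles were 0.397 and 2.08, so the value of the histone windows lay inside this range. Placements with fewer expected counts than the 81.0 here carry more counting error, which widens the range. The interval upstream that mirrors the second window about the first, chr6:24400000-25300000, had 36 counts with the first window and a ratio of 0.518 (0.363 to 0.718). The ratio between the windows was 3.36 times this (2.31 to 4.99). The first window was low with all anchors before it (0.447, 0.378 to 0.525), so the reference itself was low. The mirror of the first window about the second, chr6:28600000-28900000, holds no anchor and gave no comparison.

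The counts between the windows were concentrated at histone genes. Pairs of 2 histone anchors had 29 counts against 7.01 expected, a ratio of 4.14 (2.77 to 5.94), with 12 counts (4.10) in replicate 1 and 17 counts (4.17) in replicate 2. Pairs with 1 histone anchor had a ratio of 1.73 (1.36 to 2.17) from 74 counts, and pairs with none had 1.22 (0.860 to 1.67) from 38. The ratio for 2 histone anchors was 3.40 times that for none (2.02 to 5.67) and 2.39 times that for 1 (1.50 to 3.72), and both intervals excluded 1 in each replicate as well. Island 1 had 14 counts with island 2 (3.57, 1.95 to 5.99), 7 in each replicate. Island 1 had 15 counts with island 3 (4.86, 2.72 to 8.02), 5 in replicate 1 and 10 in replicate 2, in 15 different pairs of which none was found in both replicates.

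Single loops between the windows were at the limit of this depth. Only 4 were found in both replicates. The anchor of H1-4 and H2BC5 had 1 and 2 counts with that of H2BC11 and H2AC11, 943 kb away (12.1 times expected, 2.5 to 35.4), and these anchors share a 50-base sequence. H4C5 had 1 count in each replicate with H2BC12 and H2AC12, 910 kb away (15.1 times, 1.83 to 54.5), and shares none. The other two joined the H2BC11 and H2AC11 anchor to anchors of the first window without a histone gene, chr6:26295309-26299941 (16.8 times, 2.03 to 60.7, sharing a 50-base sequence) and chr6:26171594-26175155 (6.73 times, 0.816 to 24.3). The H2BC11 and H2AC11 anchor of island 2 thus took part in 3 of the 4.

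Taking all 140 pairs of histone anchors of different islands, there were 54 counts against 9.37 expected, a ratio of 5.76 (4.33 to 7.52), and 4.95 and 6.31 in the replicates. Most of these counts involved the 2 anchors of island 2. Of the 23 histone anchors, 21 had at least 1 count, some of them a single count near expectation (H2BC4 and H2AC6, 1 against 0.905). The share of other anchors of the windows with counts at such distances was not computed. The histone anchors without such a count were H4C3 and H2BC9, with 0 counts against 0.517 and 0.0674 expected. The H2BC11 and H2AC11 anchor had 26 counts with the other islands, 10 and 16 in the replicates (5.92, 3.87 to 8.68), and the H2BC12 and H2AC12 anchor had 13, 4 and 9 in the replicates (6.86, 3.65 to 11.7). In island 3, H2AC15 and H2BC15 had 12 counts (9.02, 4.66 to 15.8), H2BC17 had 9 (8.10, 3.70 to 15.4) and H2AC14 and H2BC14 had 8 (15.9, 6.85 to 31.2). In island 1 the highest were 4 counts each for H3C2 with H2AC4, H4C5 and H3C6. The 21 anchors with such counts include genes of all 5 histone classes, H1 through H1-2 and H1-4.

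The depth of the anchors was examined as a further measure. Of the 23 histone anchors, 20 were among the densest 10% of all anchors (at least 11.5 counts per kb). Over the genome, pairs of 2 such dense anchors had ratios of 0.998 (0.982 to 1.01) at 500 to 1000 kb and 0.902 (0.884 to 0.920) at 1000 to 2000 kb. Histone anchors of different islands that were both dense had a ratio of 5.84 (4.34 to 7.70) from 50 counts. In the windows, at 500 kb or more, dense pairs with 1 histone anchor had 2.51 (1.79 to 3.44) from 39 counts and dense pairs with none had 2.16 (1.12 to 3.78) from 12. Without regard to density, the ratio for histone anchors of different islands was 3.49 times that of window pairs at these distances without a histone gene (2.45 to 4.93), and 3.36 and 3.50 times in the replicates.

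**Figure D3:**
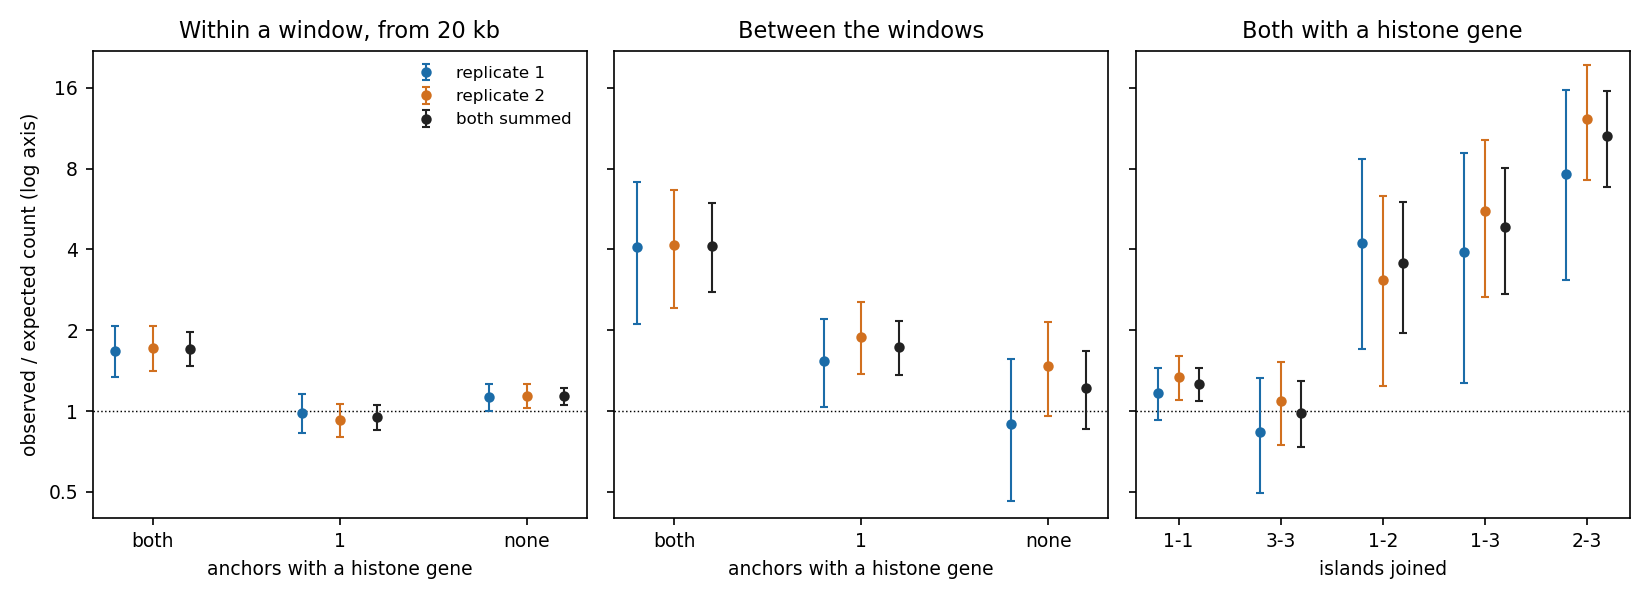
Observed over expected count (log axis) with exact Poisson 95% intervals for each replicate and their sum, by how many anchors hold a histone gene (left, within a window from 20 kb; middle, between the windows) and by island (right, both anchors with a histone gene). Between the windows the summed ratio is 4.14 for both, 1.73 for 1 and 1.22 for none, and it reaches 10.6 for islands 2 and 3.

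Summed over all its distances, the interval between the windows did not show this pattern. The first window had 181 counts with the interval, a ratio of 0.807 (0.693 to 0.933), and its histone anchors had 88 counts at 0.753 (0.604 to 0.928). The second window had 282 counts with the interval, a ratio of 1.25 (1.11 to 1.41), and its histone anchors had 39 counts at 1.13 (0.803 to 1.54). In neither window did the ratio of histone anchors differ from that of the other anchors beyond counting error (0.870 times, 0.643 to 1.18, in the first and 0.884 times, 0.614 to 1.24, in the second), with depth in the expectation. With distance alone the histone anchors had 1.90 times the ratio of the others in the first window (1.40 to 2.57) and 2.72 times in the second (1.89 to 3.83). Pairs of histone anchors between the windows had 5.50 times the ratio of the histone anchors of the first window with the interval (3.48 to 8.45). The direction for the first window depended on the expectation, since its ratio was 1.18 with distance alone and 1.31 when pairs of 2 anchors of the histone windows were left out of the balancing. In replicate 1 alone the ratios were 0.874 for the first window and 1.17 for the second, with intervals that included 1. Over the placements with an expected count of at least 20, the same classes had 5th and 95th percentiles of 0.633 and 1.39 for the first window. For the second they were 0.628 and 1.45. Both values lay inside these ranges, which include the counting error of sparser placements.

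**Figure D4:**
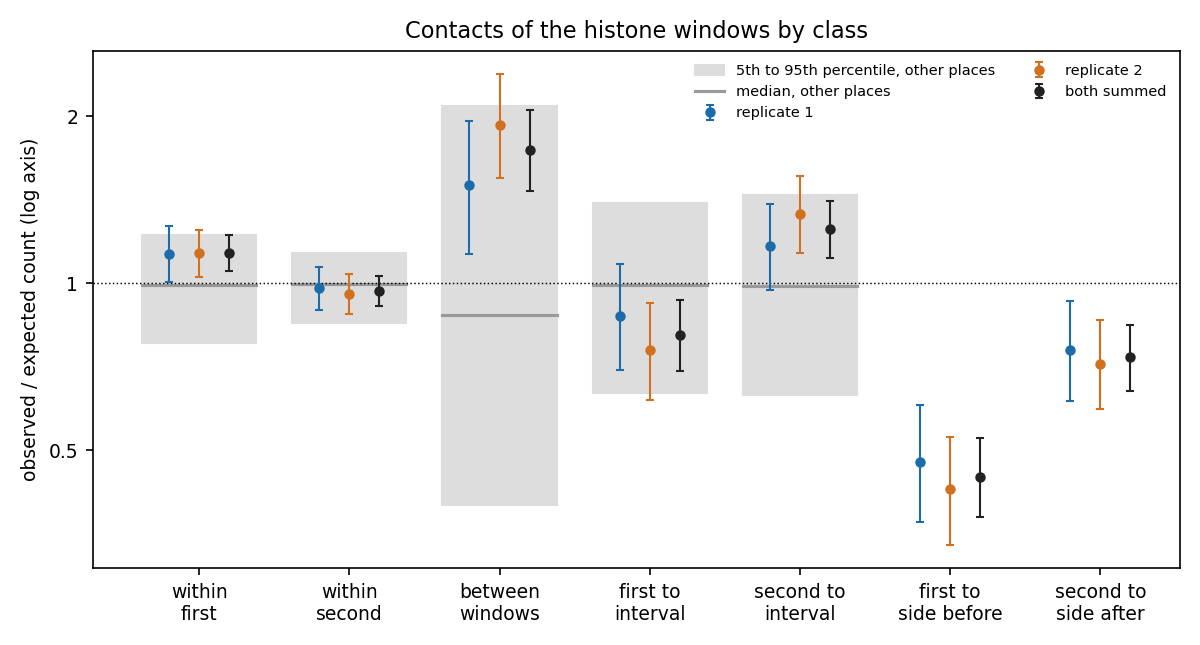
Observed over expected count (log axis) with exact Poisson 95% intervals for each class of contact, in replicate 1, replicate 2 and their sum. Grey boxes show the 5th to 95th percentile and grey lines the median of the same arrangement placed along the autosomes, where it was computed. Placements with an expected count of at least 20 were used. The summed ratio between the windows is 1.74, inside its grey box, and that of the first window with the side before it is 0.447.

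The interval holds 9 non-histone protein-coding genes, each with an anchor at its promoter, the start site ± 2.5 kb. The 6 BTN genes (BTN3A2, BTN2A2, BTN3A1, BTN3A3, BTN2A1 and BTN1A1) had 3 counts in each replicate with the histone anchors of the first window, 6 in all against 14.6 expected (0.412, 0.151 to 0.897). They had 1 count in each replicate with those of the second window (1.08, 0.130 to 3.89), all from BTN3A1. HMGN4, which encodes a nucleosome-binding protein, ABT1, a nuclear protein that binds the TATA-binding protein, and ZNF322, a zinc finger gene, had together 2 and 3 counts with the first window (0.919, 0.298 to 2.15). With the second window they had 3 and 1 counts (2.54, 0.692 to 6.51). ABT1 had 3 counts with the second window, all in replicate 1 (5.02, 1.03 to 14.7). No other interval for a single gene of the interval excluded 1.

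The strongest loops between the first window and the interval were low in count. The loop of H3C2 and H2AC4 with chr6:26569466-26573723, 540 kb away, had 2 and 1 counts (7.17 times, 1.48 to 20.9), and that of H4C8 with chr6:26584004-26586244, 299 kb away, had 1 in each replicate (13.0 times, 1.58 to 47.1). The other 3 of the 5 strongest loops start at anchors without a histone gene and had 2 or 3 counts. In the second window the anchor of ZNF184, a zinc finger gene, had 1 count in each replicate with chr6:26497891-26499240, 942 kb away (50.9 times, 6.16 to 184), and none of the 5 strongest loops of this window with the interval starts at a histone anchor. Of the 5 non-histone genes of the second window (PRSS16, POM121L2, ZNF391, ZNF184 and OR2B2), none had counts with the histone anchors of either window outside their counting interval, which included 1 in each case.

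Outside the cluster, the first window had few contacts upstream. It had 150 counts with anchors before it, a ratio of 0.447 (0.378 to 0.525), and 0.476 and 0.425 in the replicates. The second window had 213 counts with anchors after it (0.735, 0.640 to 0.841). This side covers anchors up to chr6:28477724, the end of the last one used here, and positions beyond it were not analysed here. The profile of the histone anchors of the first window was at or near 1 in the window itself. It reached 2.23 (1.30 to 3.57) in the 100 kb that holds island 2, and 2.63 (1.26 to 4.85) and 3.86 (2.00 to 6.75) in the 200 kb that hold island 3. In the other direction the histone anchors of the second window had ratios of 3.62 (2.02 to 5.96), 3.77 (2.30 to 5.83) and 5.31 (3.20 to 8.29) in the 3 bins of the first window.

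**Figure D5:**
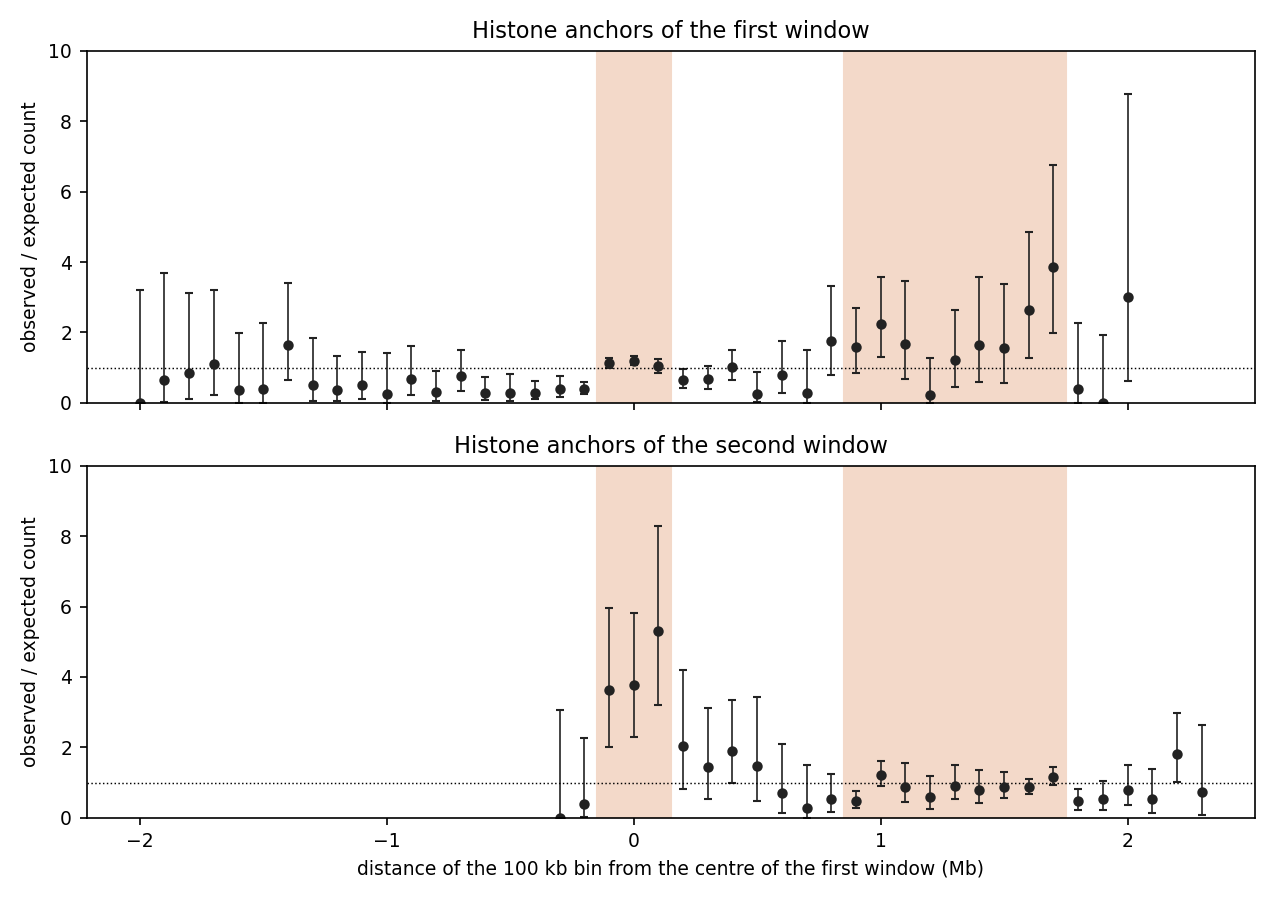
Observed over expected count of the histone anchors of the first window (top) and second window (bottom) with all anchors of each 100 kb bin, against the distance of the bin from the centre of the first window in Mb, with exact Poisson 95% intervals; shaded areas are the windows and bins with an expected count under 1 are left out. Ratios of 3.62 to 5.31 stand at the first window in the lower panel, and up to 3.86 at the far end of the second window in the upper panel.

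Near-identical histone genes can share reads of 50 bases. Of all 50-base stretches of histone transcripts, 8.95% occur again in the genome, and 28 of the 50 genes have none. The highest shares were in H4C12 (92.6%), H4C11 (92.1%), H2AC14 (66.3%), H2AC13 (63.5%) and H2BC12 (57.2%). Anchor pairs that share a 50-base sequence numbered 175 with 74 counts among the members, and 30 with 6 counts between the windows. Without them the ratio of histone anchors between the windows was 4.35, and that of histone anchors of different islands was 5.67 (4.12 to 7.62). Such stretches also make up 24.3% of H2BC15 and 9.98% of H2BC11. Counts of single loops at genes with such stretches are uncertain to the extent that reads were assigned to the wrong copy, which was not tested.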

How the data were processed

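The 2 HiChIP replicates (H3K27ac, HCT116 cells) form 1 group, and comparisons were made between groups of anchor pairs. The authors cut chromatin with MboI, processed read pairs with HiC-Pro on hg19 (per the labels) and obtained loops with hichipper, whose versions and anchor settings are not given in the sources used here. They deposited raw counts of read pairs per anchor pair, without normalization, 1 table per replicate. Of 250222 nuclear anchors, 250221 start and 250222 end at a GATC of GRCh37, so positions were counted from 1 and read in that build.

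Genes were those of GENCODE release 44 on GRCh37, with canonical transcripts, and an anchor was a histone anchor when it overlapped a protein-coding histone gene. The expected count of a pair was the product of 2 anchor weights and the mean of its distance class, with 60 classes and 20 rounds of balancing over all pairs within 2 Mb. Anchor depths were recomputed without the pair's own count, and 0.5 was added to both the observed and the expected depth. A Poisson test (one-sided, for higher counts) was run on every pair with Benjamini-Hochberg adjustment. The steps were also run on counts simulated from the same form of expectation for chromosome 6. Single pairs were raised there only above an expected count of 0.5, so sparser single pairs were not covered. A ratio of 2 ratios has an exact conditional 95% interval. P-values and intervals cover counting error only, with no term for the spread between replicates or between places of the genome. Molecular identifiers were not used. Over 3189 loops with summed counts of 10 or more, the replicates differed by a chi-square of 1.05 per degree of freedom, close to counting error, and both were kept as labelled.

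Named loops were the 5 with the highest summed count per class among those in both replicates, within windows from 20 kb. Their intervals do not allow for this choice, and none passed the Poisson test with depth in the expectation. All histone genes listed in the annotation used and the protein-coding genes of the interval were described. The windows, gene lists and tests were chosen with earlier results of these data known. The islands and the dense anchors were compared after these values had been seen. The alternatives were distance alone, the pair kept in the depth, 30 distance classes, histone pairs left out of the balancing, an adjusted p under 0.05, equal weight per loop, pairs sharing 50 bases left out, pairs from 20 kb, start sites within 2.5 kb and each replicate left out. Python 3.11.15, numpy 2.4.6, pandas 2.3.3, scipy 1.17.1 and numba 0.67.0 were used.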

Additional observations from a re-analysis of the deposited data

How the results depend on the processing

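The ratios between the windows, and between histone anchors of both windows, kept their direction and their side of 1 under every alternative run. Leaving out 1 replicate gave 1.51 to 1.93 for the former and 4.10 to 4.17 for the latter. With distance alone they were 2.89 and 26.6, and with histone pairs left out of the balancing 3.29 and 8.65. The number of members above expectation was 0 except with distance alone, which gave 14. The ratio within the first window was 1.04 with equal weight per loop, with an interval that included 1, 2.72 with distance alone and 3.42 with histone pairs left out of the balancing. The ratio within the second window was 1.11 with distance alone and 1.30 with histone pairs left out of the balancing, both above 1. The ratio of the first window with the interval also turned, to 1.18 with distance alone and 1.31 with histone pairs left out of the balancing. It was 0.757 to 0.874 when 1 replicate was left out, and that of the second window with the interval was 1.17 to 1.33, where the values without replicate 2 had intervals that included 1. The cause of these changes was not tested, so the direction for the first window with the interval holds only for the expectation used. For histone anchors of different islands, compared after the values had been seen, the range was 4.26 to 37.8, and for islands 2 and 3 it was 5.21 to 73.8. No paired analysis was possible because there was 1 group. Counts of 1 to 3 per loop limit what can be said of any single contact.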
